A study of Mus musculus with 2 samples.

Results

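CNS Neuron was 1 of the 16 cell types that the authors assigned to dissociated mouse embryos at embryonic day E11.5, and it comprised 532 of the 5678 cells with an assigned type. Its members were the cells given that name in the deposited cell table, joined by barcode to the filtered count matrices of 4 cell suspensions. No barcode was shared between suspensions. The study introduced transgenes into fertilized mouse eggs with piggyBac, a transposase that pastes donor DNA into the genome, and used single-cell RNA sequencing to follow where and when the inserts arose. All embryos shared the genotype DNA barcode-linked GFP Tg, in which a CAG promoter drives EGFP linked to a random barcode. F0_8 and F0_9 were founder embryos that had received mPBase mRNA by electroporation and donor DNA by microinjection. F1_1 was an F1 transgenic embryo, and F1_mix combined the cells of 2 further F1 embryos as a deliberate mosaic. Eggs and sperm for the founders came from C57BL/6J mice, per the study's supplement. Embryos without the transgene were not analysed here, and the groups stand for 2 founders and 2 F1 suspensions. The suspensions were tagged with CellPlex oligos and run together in 1 droplet library, so that lane and sequencing run were common to them.

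Newborn neurons of the central nervous system leave the cell cycle in the ventricular zone, where basic helix-loop-helix proneural factors such as Neurog2 commit progenitors to neuronal fate and raise Notch ligands that hold neighbouring cells back. They then switch on cytoskeletal, RNA-binding and axon guidance genes as they migrate and extend an axon. Position along the body axis, written in part by Hox genes in hindbrain and spinal cord and by factors such as Otx2 in forebrain and midbrain, together with the progenitor domain of origin decides which transmitter a neuron will use.

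Founder F0_8 gave 126 CNS Neuron cells, founder F0_9 gave 151, and the suspensions F1_1 and F1_mix gave 110 and 145. They made up 7.88% of the typed cells in F0_8 (95% exact binomial interval 6.61 to 9.31%) and 11.46% in F0_9 (9.79 to 13.3%). The F1_1 share was 8.40% (6.95 to 10.0%) and the F1_mix share 9.99% (8.50 to 11.7%). The founders bracketed both F1 suspensions. The founder mean of 9.67% and the F1 mean of 9.20% differed by 0.473 percentage points, with an exact permutation p of 1 (two-sided), where 2 suspensions against 2 allow no p below 1 in 3. A CNS Neuron cell had a median of 10898.5 gene UMIs (unique transcript molecules; range 1812 to 35047) from a median of 3758.5 genes, and the sums per suspension held 1309721 to 1746675 UMIs. The founders had median depths of 10071.5 (F0_8) and 10380 UMIs (F0_9), and the F1 suspensions 11689.5 (F1_1) and 11276 (F1_mix). UMIs of Y-linked genes were found in 88.1% of the F0_8 cells and 7.28% of the F0_9 cells, beside 3.64% for F1_1 and 44.8% for F1_mix, so the suspensions differed in Y-linked transcripts as well as in generation. Levels below are UMIs of a gene per 10000 gene UMIs, summed over the cells of a suspension, and are listed in the order F0_8, F0_9, F1_1, F1_mix. They are not comparable between genes. Intervals cover counting error only. Because the authors clustered on gene expression, comparisons of CNS Neuron with other cell types are given as values without a test.

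The label was checked with Tubb3 (neuronal beta-tubulin), Stmn2 (a tubulin regulator of growing axons), Elavl3 (a neuronal RNA-binding protein) and Dcx (doublecortin, of migrating neurons). Tubb3 stood at 31.8 in CNS Neuron, against 2.69 in Neuronal Progenitor and at most 0.839 in the 9 other deep cell types, where it was highest in Ependymal Cell. Deep types are the 12 whose cells did not have a very low UMI count. It was as high, 33.6, in the type labelled Neuroectoderm/Glia. Stmn2 was 12.5 in CNS Neuron, 27.3 in Neuroectoderm/Glia and 0.407 in Neuronal Progenitor. Elavl3 was 6.93, 5.81 and 1.36 in the same types, and Dcx was 4.38, 6.55 and 0.282. After thinning each cell to 5000 UMIs, which kept 515 of 532 CNS Neuron cells, Tubb3 was detected in 99.0% of them, Elavl3 in 91.3%, Stmn2 in 75.7% and Dcx in 71.7%. In Neuroectoderm/Glia the shares were 100%, 93.3%, 99.4% and 95.3%, and in Neuronal Progenitor 51.6%, 41.6%, 14.4% and 9.85%. The name CNS Neuron therefore matched its markers, which were also present in the type named for glia. Markers of non-neural cells were scarce, with a summed level of 0.00981 for 5 endothelial genes, 0.0229 for 5 macrophage genes, 0.263 for 6 mesenchymal genes, 0.0687 for 5 muscle genes and 0.121 for 4 epithelial genes. The defining endothelial genes Cdh5 and Tek and the defining macrophage genes Ptprc and C1qb had no UMI at all. Hemoglobin and other erythroid genes summed to 0.780, close to the 0.736 and 0.726 of the other neural types.

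CNS Neuron was compared with the 11 other deep types. Of 1804 genes at a level of 1 or more in all 4 suspensions, 366 were higher in CNS Neuron than in each of those types, and 203 of these were highest in every suspension. Ppp1r14a (an inhibitor of myosin phosphatase, chr7:29289320-29293390 in GRCm38) had the largest ratio. Its levels were 2.91, 2.93, 2.59 and 3.30, and the next type, Neuroectoderm/Glia, had 0.353, an 8.38-fold ratio of the pooled levels. Dll3, a divergent Notch ligand that acts inside the cell (chr7:28293555-28301785), had levels of 2.75, 2.79, 3.88 and 4.55 and a ratio of 7.47 to the next type. Both F1 suspensions lay above both founders for Dll3. Gadd45g, a stress and growth arrest gene induced by proneural factors (chr13:51846675-51848475), had 4.61, 5.57, 6.73 and 6.31 against 1.75 in Neuronal Progenitor, a ratio of 3.32. Below are the promoter windows of these 3 genes from RefSeq (GRCm38.p6; 250 bases before to 50 after the start, 5′ to 3′ on the strand of the gene), shown because E-box motifs are the letters that proneural factors bind. Capitals mark CAGCTG, its own reverse complement, or CAGATG on either strand (CATCTG on the other).
Ppp1r14a, chr7:29289070-29289369, plus strand: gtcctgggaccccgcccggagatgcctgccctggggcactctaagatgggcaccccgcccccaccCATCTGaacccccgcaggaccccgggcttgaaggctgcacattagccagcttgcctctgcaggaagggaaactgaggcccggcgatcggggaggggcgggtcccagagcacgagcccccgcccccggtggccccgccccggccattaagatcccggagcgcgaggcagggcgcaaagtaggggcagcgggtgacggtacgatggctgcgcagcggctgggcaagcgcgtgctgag
Dll3, chr7:28301736-28302035, minus strand: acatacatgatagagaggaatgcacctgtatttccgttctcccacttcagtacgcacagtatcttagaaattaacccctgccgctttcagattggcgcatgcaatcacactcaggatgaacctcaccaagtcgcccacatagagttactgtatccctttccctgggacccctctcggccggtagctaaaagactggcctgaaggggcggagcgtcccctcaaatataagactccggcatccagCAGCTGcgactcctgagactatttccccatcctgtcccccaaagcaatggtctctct
Gadd45g, chr13:51846425-51846724, plus strand: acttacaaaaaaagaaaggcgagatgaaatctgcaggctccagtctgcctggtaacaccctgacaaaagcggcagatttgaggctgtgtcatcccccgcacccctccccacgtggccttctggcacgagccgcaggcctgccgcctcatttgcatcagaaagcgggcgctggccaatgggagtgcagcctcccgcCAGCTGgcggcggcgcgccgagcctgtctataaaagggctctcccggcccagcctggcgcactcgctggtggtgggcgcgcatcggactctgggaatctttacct
The Dll3 window held CAGCTG beginning at base -7 from the start, the Gadd45g window held it at -55, and the Ppp1r14a window held CATCTG at -185. Of the 25 genes with the largest ratios, 19 had 26 windows in the table. CAGCTG occurred in 7 of these 26 windows (26.9%) and in 5355 of all 32851 windows (16.3%), and CAGATG on either strand occurred in 4 (15.4%) and 5635 (17.2%). Either motif occurred in 10 of the 26 windows (38.5%) and in 10043 of all windows (30.6%). The 3 windows shown were among those with a match. A match is a description of letters and not a bound site.

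Several transcription factors of early neuronal differentiation were among the 25 leading genes. St18, a zinc finger factor of the Myt family, had levels of 4.87, 4.39, 3.50 and 3.78, 4.63-fold the next type. Neurod1, a helix-loop-helix factor downstream of the neurogenins, had 2.25, 1.74, 1.97 and 2.30 (4.59-fold). Tlx3, which selects glutamatergic over GABAergic fate in the dorsal spinal cord, had 1.999, 1.32, 1.64 and 1.67 (4.45-fold). For each of these 3 genes every suspension lay above the pooled level of the next type. Insm1, a zinc finger factor of differentiating neurons, was 3.26-fold above Neuronal Progenitor, and Prox1, which promotes cell cycle exit, was 3.41-fold above the next type. Isl1 (2.69-fold), a LIM homeodomain factor of motor and sensory neurons, was highest in 3 of 4 suspensions, with levels of 3.33, 2.57, 1.61 and 2.50. Srrm4, the splicing regulator of neuronal microexons, stood at 8.51 against 3.01 in the next type. Dcc, the netrin receptor that guides commissural axons, stood at 87.0 against 29.2, with 88.9, 85.2, 94.7 and 81.5 in the 4 suspensions. The widest spread among the leading genes was in Thsd7b, a thrombospondin domain protein, with 10.5, 6.46, 3.31 and 3.05. The last gene inside the list was Nav2 with a ratio of 2.40, and the next outside was Pou4f1 with 2.37. Neuroectoderm/Glia was the next highest type for 15 of the 25 genes and Neuronal Progenitor for 7.

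The proneural list was highest in CNS Neuron for most of its genes. Of 21 proneural and newborn neuron factors, 19 were higher in CNS Neuron than in Neuroectoderm/Glia in all 4 suspensions, 1 was lower and the median gene was 7.33-fold higher, whereas over all 11985 genes with 20 or more UMIs 2907 were higher and 2977 lower. Against Neuronal Progenitor 17 of the 21 were higher in every suspension and none lower, beside 3588 higher and 4329 lower among 12480 genes. Of the 21 genes, 15 were highest in CNS Neuron among the 12 deep types in all 4 suspensions, beside 386 of all 21937 genes. Neurod4 stood at 0.551, 0.00168 and 0.0896 in CNS Neuron, Neuroectoderm/Glia and Neuronal Progenitor, and Neurog1 at 0.896, 0.0084 and 0.383. Nhlh1, a factor of neurons just past their last division, stood at 1.20, 0.163 and 0.0531. Hes6, which promotes differentiation, stood at 5.04, 0.967 and 2.41. Myt1l, a factor that maintains neuronal identity, was the member lower than in Neuroectoderm/Glia, at 1.69 against 4.92.

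Genes of the maturing axon and synapse were already above the progenitor level but below Neuroectoderm/Glia. All 23 cytoskeletal and axon growth genes were higher than in Neuronal Progenitor in every suspension (median 4.44-fold), and 21 were lower than in Neuroectoderm/Glia in every suspension, none higher (median 1.94-fold lower). Gap43, a growth cone protein, stood at 2.19 in CNS Neuron, 9.23 in Neuroectoderm/Glia and 0.219 in Neuronal Progenitor. The intermediate filament gene Ina stood at 4.17, 18.0 and 0.107, and Mapt, the gene of tau, at 0.442, 5.79 and 0.0920. Of 22 synaptic vesicle and granule genes, 19 were above the progenitor level and 16 below that of Neuroectoderm/Glia in all suspensions. Snap25, a membrane fusion protein, stood at 1.23, 2.17 and 0.203, and the calcium sensor Syt1 at 2.79, 6.64 and 0.627. Of 24 channels and receptors, 20 were above the progenitor level and 18 below Neuroectoderm/Glia (median 3.07-fold lower). Robo3, which lets commissural axons cross the midline, was about level at 1.81 in CNS Neuron and 1.85 in Neuroectoderm/Glia against 0.0531 in progenitors. Cntn2, an axonal adhesion protein of early commissural and motor axons, stood at 1.501, 0.967 and 0.00943.

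Genes of the dividing progenitor ran in the opposite order. All 17 neural progenitor genes were lower in CNS Neuron than in Neuronal Progenitor in every suspension (median 4.81-fold lower), and 14 were higher than in Neuroectoderm/Glia. Sox2, a factor of neural stem cells, stood at 0.870 in CNS Neuron, 0.229 in Neuroectoderm/Glia and 4.19 in Neuronal Progenitor, and the Notch target Hes5 at 0.433, 0.0336 and 3.67. All 16 cell cycle genes were lower than in Neuronal Progenitor (median 16.5-fold lower). The topoisomerase gene Top2a stood at 0.105, 0.0622 and 5.68, and at 5000 UMIs it was detected in 4.85% of CNS Neuron cells. Sox2 was detected in 25.05% of them. In the Myoblast/Cardiomyocyte type, which should lack Sox2 and whose median depth was 18369 UMIs against 10898.5, the Sox2 share at 5000 UMIs was 1.72%.

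**Figure D1:**
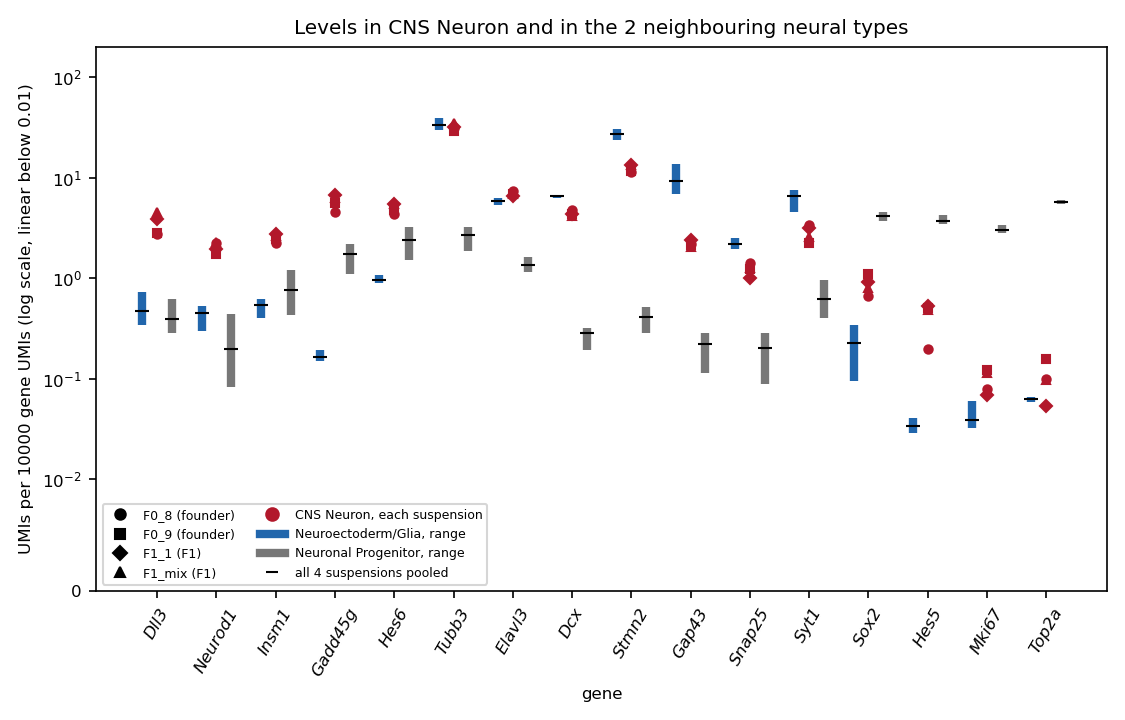
Levels of 16 genes (UMIs per 10000 gene UMIs, log axis that is linear below 0.01) in CNS Neuron, with a red symbol for each of the 4 suspensions, beside the range and pooled level (tick) of Neuroectoderm/Glia in blue and Neuronal Progenitor in grey. Dll3 and Gadd45g were highest in CNS Neuron, Gap43 and Stmn2 were highest in Neuroectoderm/Glia, and Sox2 and Top2a were highest in Neuronal Progenitor.

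CNS Neuron cells were split by their proneural transcripts. At least 1 UMI from a set of 5 proneural factors, such as Neurog1 and Neurog2, was found in 379 of the 532 cells (71.2%), with 74.6, 66.2, 67.3 and 76.6% in the 4 suspensions. Those cells had a median depth of 10924 UMIs, close to the 10844 of the other 153 cells. Dll1, a Notch ligand, stood at 0.920 in cells with a proneural factor and 0.190 in the others, and Gadd45g stood at 7.46 and 1.64. Hes6 (6.34 and 1.77), the antiproliferative gene Btg2 (4.09 and 1.08) and Fabp7 (2.46 and 0.801), a fatty acid binding protein of radial glia, were likewise higher in 4 of 4 suspensions. Ina (2.73 and 7.83), Stmn2 (9.96 and 19.0), Robo3 (1.02 and 3.79) and Dcx (3.81 and 5.83) were lower in 4 of 4. Not every newborn or axon gene followed these directions. Nhlh2 was lower in cells with a proneural factor (5.14 and 6.86, lower in 4 of 4 suspensions), St18 (4.01 and 4.45) and Nhlh1 (1.24 and 1.09) were each higher in 2 of 4, and Dcc (88.9 and 82.4) was higher in 3 of 4. Dll3 differed less, at 3.83 and 2.72, so this Notch ligand was present in both sets of cells. These splits are descriptions of cells that share their suspension, without a test.

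Individual proneural factors overlapped in part, and Atoh1 was seldom found with Neurog1 or Neurog2. Neurog1 was detected in 127 cells, Neurog2 in 194, Atoh1 in 45 and Ptf1a in 21. At 5000 UMIs the shares were 16.9, 29.7, 7.18 and 3.11%, against 0.781, 0.313, 0 and 0% of 640 Myoblast/Cardiomyocyte cells, where a count of 0 allows up to 3 cells. Neurog1 and Neurog2 were found together in 60 cells. Of the 45 cells with Atoh1, a factor of rhombic lip and dorsal-most spinal neurons, 1 had Neurog1, 1 had Neurog2 and 0 had Ptf1a, a count of 0 that allows up to 3 cells by counting error. Atoh1 cells had Barhl1, a homeobox gene of that lineage, at 4.17 against 0.122 in the other cells. Barhl2 stood at 2.33 against 0.179, Lhx9 at 4.26 against 0.730 and Lhx2 at 6.37 against 1.66, whereas Lhx1 was not detected in Atoh1 cells and stood at 2.23 in the others. Among the 21 cells with Ptf1a, the factor of dorsal inhibitory neurons, 14 also held Neurog2. Their Pax2 level was 5.54 against 2.44 in other cells (higher in 3 of 4 suspensions), their Gad2 level was 0.784 against 1.25 (higher in 1 of 4), and Tlx3, Isl1, Lhx2 and Slc17a6 had no UMI in them. Cells with Neurog1 had more Isl1 (5.63 against 1.32) and more of the sensory POU factor Pou4f1 (2.62 against 0.834) in 4 of 4 suspensions.

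Hox genes are used in hindbrain and spinal cord, and 68.0% of CNS Neuron cells had 1 or more Hox UMI. At 5000 UMIs the share was 60.8%, against 7.75% of Erythroblast cells, a blood type that should lack these genes and whose median depth was 29076 UMIs against 10898.5. Any of 6 forebrain and midbrain genes, such as Otx2 and Emx2, had a UMI in 20.8% of CNS Neuron and 2.82% of Erythroblast cells at that depth. Neither share was particular to CNS Neuron. Hox genes were found in 58.1% of Neuroectoderm/Glia, 41.1% of Neuronal Progenitor and 74.5% of Mesodermal Progenitor cells at 5000 UMIs. The forebrain and midbrain genes were found in 22.3, 47.7 and 11.9% of the same types. Without thinning, Erythroblast shares were 32.6% for Hox genes and 4.86% for the forebrain and midbrain genes. The part of free RNA in cells placed by 1 UMI was not tested. A Hox UMI was absent from 45.2, 29.1, 29.1 and 25.5% of the cells in the 4 suspensions. The most posterior group detected was 7 to 9 in 24.8% of all cells and 10 to 13 in 19.4%. Cells were called caudal with 1 or more Hox UMI and none of the 6 forebrain and midbrain genes, and rostral in the reverse case. The caudal class held 63, 99, 75 and 98 cells (50, 65.6, 68.2 and 67.6%), and the rostral class held 35, 27, 19 and 22 cells (27.8, 17.9, 17.3 and 15.2%). F0_8 thus had the smallest caudal and the largest rostral share. Another 27 cells held both kinds of gene and 67 neither. Classes rested on 1 UMI in 33 caudal and 20 rostral cells.

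Caudal and rostral CNS Neuron cells differed in 399 of 7409 genes by edgeR's quasi-likelihood test with the suspension as a block (adjusted p under 0.05; all class genes left out). Of these, 219 genes were higher in caudal cells (2.96% of those tested) and 180 lower (2.43%), and 371 had the same sign in all 4 suspensions. Signs were counted among called genes only, so this adds no support to the calls. Caudal cells carried dorsal spinal and hindbrain factors. Lbx1, a homeobox gene of dorsal interneurons, had 248 UMIs in caudal cells and 0 in rostral cells, at least 22.7-fold higher when the empty class is set to 3 counts. Its caudal levels were 0.774, 0.570, 0.478 and 0.686. Atoh1 had 224 UMIs against 0 (at least 20.5-fold) and Olig3, a factor of dorsal progenitors, 189 against 0 (at least 17.3-fold). Pax2, a paired box gene of inhibitory interneurons, had 1462 UMIs in caudal cells and 3 in rostral ones, a ratio of 134 with a counting interval of 45.7 to 650. Glra1, a glycine receptor subunit, had 902 UMIs against 3, a ratio of 82.6 (28.2 to 402). The glycine transporter gene Slc6a5 had 237 UMIs against 1, a ratio of 65.1 (11.6 to 2584).

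Tlx3 levels were 3.22, 1.53, 1.99 and 2.01 in caudal cells and 0.241, 0, 0.0457 and 0.256 in rostral cells. The classes did not overlap, and the log2 difference was 4.01 ± 0.31 (SE; edgeR adjusted p = 1.88e-06). Of 29 tested spinal cord and hindbrain subtype factors, 12 were higher in caudal cells and 5 lower, with a median log2 difference of 0.55 against -0.0048 over all genes. The members that rose included Pou4f1 (2.29), Tfap2a (2.82) and Tfap2b (2.04), an AP-2 factor of dorsal inhibitory neurons. Those that fell included Onecut1 (-2.34), Onecut2 (-1.55) and Sim1 (-1.21), and En2 (-2.36), a midbrain and hindbrain factor. The En2 call was lost without F0_9 and the Sim1 call without F0_9 or F1_1, and Onecut1 fell below the filter on low counts without F1_1. Meis1 (1.71) and Meis2 (1.75), the Hox cofactors, were higher in caudal cells.

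Rostral cells carried factors of the forebrain. Eomes, a T-box gene of cortical intermediate progenitors and newborn glutamatergic neurons, had 107 UMIs in rostral and 0 in caudal cells, at least 130-fold higher in rostral cells. Tfap2d had 132 UMIs against 2, a ratio of 240 with a counting interval of 65.2 to 2003. Dlx5, a homeobox gene of forebrain interneurons, differed by -5.86 ± 0.53 on the log2 scale (edgeR adjusted p = 6.34e-06) and Nkx2-1, which specifies hypothalamic and medial ganglionic identity, by -4.47 ± 0.51. In all, 9 of 17 tested forebrain and midbrain factors were higher in rostral cells and 3 higher in caudal cells. Of 25 tested adhesion and guidance genes, 7 were higher in caudal cells and 2 in rostral cells by edgeR (DESeq2 4 and 2). Dscam, an adhesion receptor of the immunoglobulin family, was one of the latter (-3.02, edgeR adjusted p = 1.38e-07). The kainate receptor gene Grik2 was also higher in rostral cells (-1.19).

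LIM homeodomain factors, which form combinatorial codes for neuronal class, all differed where they could be tested. Of 7 tested, Lhx1 (1.45), Lhx5 (1.29), Isl1 (1.13) and Lmx1b (2.09) were higher in caudal cells on the log2 scale, and Lhx2 (-1.85), Lhx8 (2 UMIs in caudal against 55 in rostral cells, a 100.05-fold ratio with an interval of 26.4 to 847) and Lhx9 (-1.75) were higher in rostral cells. Lhx9 levels were 0.387, 0.312, 1.26 and 0.587 in caudal and 2.03, 2.85, 2.19 and 1.02 in rostral cells. Within each suspension the rostral value was the larger. Isl1 and Lmx1b were no longer called without F0_8. Transmitter genes also differed. Slc17a6, the vesicular glutamate transporter, had 0.601, 0.428, 0.523 and 0.207 in caudal and 2.03, 0.788, 1.01 and 1.41 in rostral cells, a log2 difference of -1.56 ± 0.26 (edgeR adjusted p = 0.00130). Gad1 and Gad2, the enzymes that make GABA, differed by -1.20 and -0.82. Both calls were lost without F0_8 and without F0_9, and in F1_1 the caudal level was the higher, 0.334 against 0.228 for Gad1 and 0.968 against 0.868 for Gad2. Of 7 tested cell cycle genes 0 were called by edgeR or DESeq2, and 1 had an unadjusted p under 0.05.

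**Figure D2:**
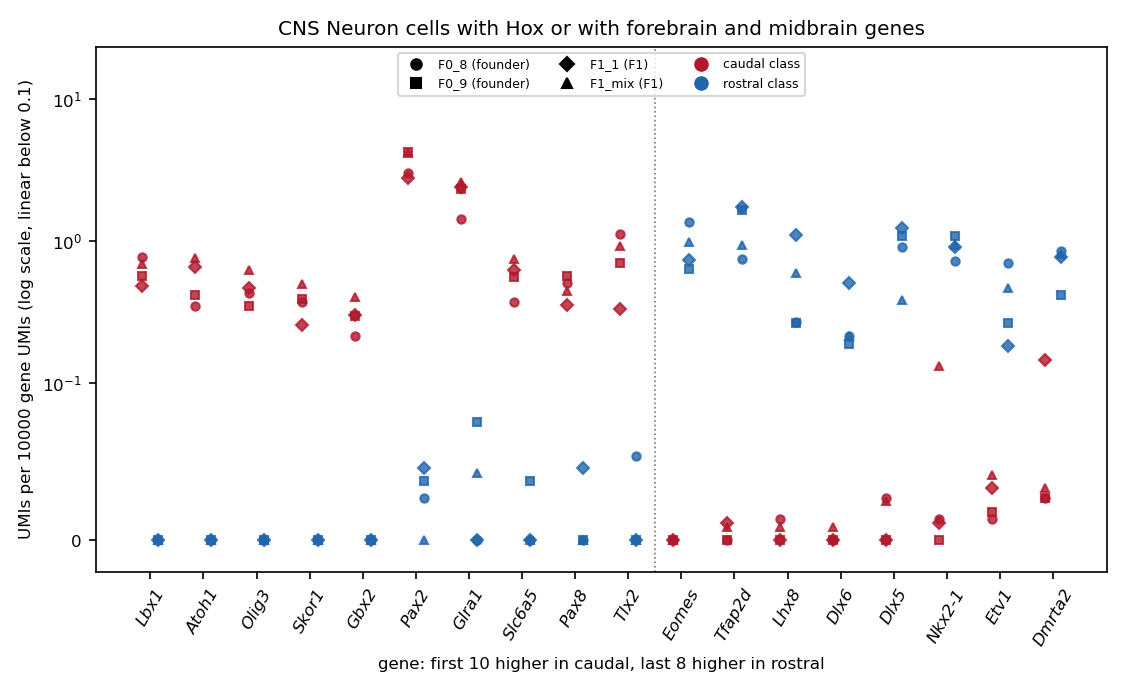
Levels (UMIs per 10000 gene UMIs, log axis that is linear below 0.1) of 18 genes named by rule in caudal (red) and rostral (blue) CNS Neuron cells, with 1 symbol per suspension. The first 10 genes, such as Lbx1 and Pax2, were higher in caudal cells, and the last 8, such as Eomes and Dlx5, were higher in rostral cells of every suspension.

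Transmitter genes divided fewer of the cells. The inhibitory class had 1 or more UMI of Gad1, Gad2, Slc32a1 (the vesicular GABA and glycine transporter) or Slc6a5 and none of Slc17a6, and the glutamatergic class the reverse. The inhibitory class held 35, 49, 22 and 35 cells, 141 in all (26.5%). The glutamatergic class held 28, 28, 21 and 25 cells, 102 in all (19.2%). Only 6 cells held both kinds of gene and 283 held neither. Median depth was 10380 UMIs in inhibitory and 12741.5 in glutamatergic cells, and 23 and 27 cells rested on 1 UMI. The caudal class gave 84 of the inhibitory and 49 of the glutamatergic cells, and the rostral class 32 and 29. The cholinergic genes Chat and Slc5a7 had 8 and 9 UMIs over all CNS Neuron cells. Among neuropeptides, Cck (cholecystokinin) had levels of 1.09, 0, 0.0840 and 1.66, which rested on 5, 0, 3 and 7 cells. Adcyap1, the gene of PACAP, had 0.285, 0.309, 0.405 and 0.366.

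Inhibitory and glutamatergic cells differed in 376 of 6060 genes (edgeR quasi-likelihood test with the suspension as block; the 5 class genes left out). Of these, 148 were higher in inhibitory cells (2.44% of those tested) and 228 lower (3.76%), and 351 had the same sign in every suspension. Here too signs were counted among called genes only, which adds no support to the calls. The leading inhibitory genes included transcription factors of spinal cord and of forebrain. Pax2 had levels of 6.43, 7.62, 10.4 and 8.22 in inhibitory cells and a pooled level of 0.301 in glutamatergic cells. The log2 difference was 4.75 ± 0.43 (edgeR adjusted p = 8.93e-06). Pax8 (4.47) and Pax5 (3.62), its paralogs, were higher too. Lhx1 had 3.67, 5.37, 8.71 and 6.25 against 0.0511, 0.471, 0.789 and 0.234, a log2 difference of 3.99 ± 0.25 (adjusted p = 3.00e-07), and Lhx5 differed by 3.22. Both are LIM factors of dorsal inhibitory interneurons.

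The forebrain interneuron genes had few glutamatergic UMIs. Dlx2 had 136 UMIs in inhibitory and 0 in glutamatergic cells, at least 42.6-fold higher, and Dlx1 had 126 against 1, a ratio of 118 with a counting interval of 20.9 to 4710. Tal1, a factor of inhibitory neurons in midbrain and ventral spinal cord, had 105 against 0, at least 32.9-fold. Six3 (4.57), Nkx2-1 (4.28), En1 (2.88), a factor of ventral inhibitory interneurons, and Lbx1 (2.48) were also higher on the log2 scale. Of 15 tested forebrain and midbrain factors 6 were higher and 2 lower, and of 24 spinal cord and hindbrain factors 9 were higher and 8 lower. Of 7 tested neural progenitor genes, Sox2 (3.44) and Pax3 (1.94) were higher and Vim (-0.73) was lower. Pax3 was not called by DESeq2 (adjusted p = 0.116) and fell below the filter on low counts without F1_mix. In F1_1 its inhibitory level was the lower, 0.0850 against 0.144. The synaptic adhesion gene Nrxn3 had 86.0, 74.0, 82.1 and 64.3 in inhibitory cells against 0.485, 0.995, 1.76 and 0.234. It did not overlap between the classes, and its log2 difference was 6.52 ± 0.25 (edgeR adjusted p = 7.18e-09). Cacna2d3, a calcium channel subunit, differed by 4.40.

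Glutamatergic cells carried another set of LIM, POU and homeobox factors. Lhx9 had 2.60, 2.85, 3.12 and 2.75 in glutamatergic cells and 0.0287, 0.0214, 0.0425 and 0.0692 in inhibitory cells, a log2 difference of -6.05 ± 0.27 (edgeR adjusted p = 1.26e-08). Its paralog Lhx2 stood at 0.0741 in inhibitory and 5.65 in glutamatergic cells (-6.25 ± 0.28). Isl1 had 0.804, 0.941, 0.425 and 0.877 in inhibitory and 6.18, 5.21, 0.933 and 5.97 in glutamatergic cells. F1_1 was the low suspension for glutamatergic Isl1, yet there too the level was above that of its inhibitory cells. Neurod1 had 0.316, 0.471, 0.382 and 1.22 in inhibitory and 3.63, 3.797, 2.33 and 4.18 in glutamatergic cells (-2.63 ± 0.23, edgeR adjusted p = 7.30e-06). Rspo3, a secreted Wnt agonist, had 0 UMIs in inhibitory and 181 in glutamatergic cells, at least 64.2-fold. Tfap2d had 1 against 134, a ratio of 143 with a counting interval of 25.2 to 5677. Rgs4, a regulator of G protein signalling, had 3 against 214, a ratio of 76.0 (25.6 to 371).

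Tlx3 (-3.40), Pou4f1 (-2.45), Barhl1 (-3.10) and Barhl2 (-4.01) were higher in glutamatergic cells. All 5 sensory neuron genes that could be tested, Isl1, Ntrk3 and Pou4f1 among them, were higher there by edgeR (3 by DESeq2). The Ntrk3 call was lost without F0_9, F1_1 or F1_mix. The tested genes of the sensory list thus moved with this class. Whether peripheral sensory neurons were among its cells, and their part in the other differences, was not tested. Of 23 cytoskeletal genes, 9 were higher in glutamatergic cells and 0 in inhibitory cells by edgeR (DESeq2 7 and 0; 1 was higher in inhibitory cells at an unadjusted p under 0.05), with Nefm and Nefl each at -1.82 and Gap43 at -1.63. The calcium channel subunit gene Cacna2d1 stood at 2.72 in inhibitory and 18.5 in glutamatergic cells (-2.84 ± 0.15), and the Slit receptor Robo2 differed by -2.06. Adhesion and guidance genes went both ways. Of 22 tested, edgeR called 5 higher in glutamatergic cells, Robo2 and Nrp1 among them, and 3 higher in inhibitory cells (DESeq2 2 and 2). The latter were Epha4 (1.66), Robo3 (0.77) and Robo1 (0.57) on the log2 scale. The Robo3 and Robo1 calls were lost without F0_8 and without F1_mix, and the Nrp1 call was lost without any 1 of the 4 suspensions. When only caudal cells were compared, 250 genes were called, of which 205 were among the 376. In that setting Neurog2, Nfib and Hmgb2 changed sign.

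**Figure D3:**
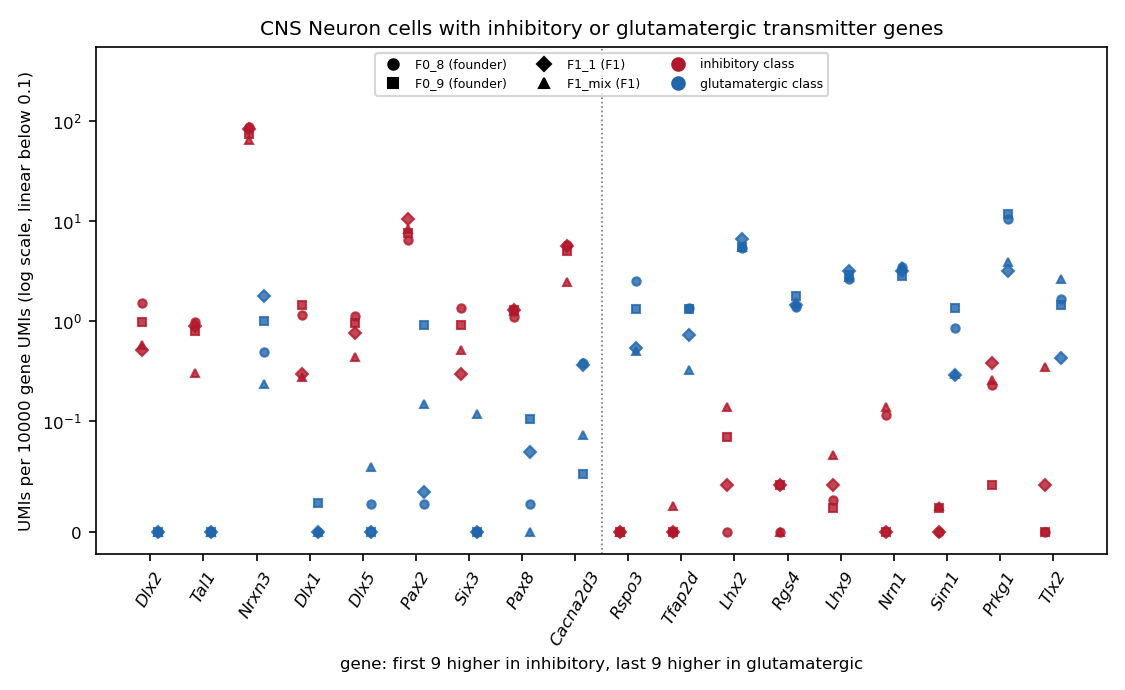
Levels (UMIs per 10000 gene UMIs, log axis that is linear below 0.1) of 18 genes named by rule in inhibitory (red) and glutamatergic (blue) CNS Neuron cells, with 1 symbol per suspension. Nrxn3, Pax2 and the Dlx genes were higher in inhibitory cells, and Lhx2, Lhx9 and Rspo3 in glutamatergic cells.

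Founder and F1 suspensions were compared on the CNS Neuron sums, which addresses whether the transgenic founders differ from transmitted carriers in these cells. Of 9916 genes, 77 were called by edgeR, 47 higher in founders (0.474% of those tested) and 30 lower (0.303%), with 906 genes at an unadjusted p under 0.05. By edgeR and by DESeq2, 0 of 23 cytoskeletal genes, 0 of 16 neural progenitor genes, 0 of 13 cell cycle genes and 0 of 12 LIM factors were called. At an unadjusted p under 0.05 these counts were 7, 4, 4 and 1, the first 3 sets all lower in founders. Of 21 proneural and newborn factors, Dll3 and Neurog1 were called, both lower in founders. Dll3 differed by -0.63 ± 0.10 (adjusted p = 0.0149) and Neurog1, with levels of 0.711, 0.653, 1.18 and 1.06, by -0.73 ± 0.14 (adjusted p = 0.0417). The Neurog1 call was lost without F0_8, F0_9 or F1_1. Forebrain genes were among those higher in founders. Of 25 forebrain and midbrain factors, 3 were called higher in founders and 0 lower by edgeR (DESeq2 2 and 0; 7 and 0 at an unadjusted p under 0.05). They included Neurod2 (2.51) and Neurod6 (3.09), factors of cortical neurons. Neurod6 levels were 0.398, 0.181, 0.0153 and 0.0458.

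Adhesion and guidance genes with a higher founder level were Robo2 (1.49), Plxna4 (1.33) and Unc5c (1.06), of 29 tested. Robo2 had 4.40, 3.32, 1.49 and 1.24, an adjusted p of 0.00190 by edgeR. Pcdh15, a cadherin of sensory hair cells, had 5.89, 3.04, 0.550 and 0.618, a log2 difference of 2.90 ± 0.27 (edgeR adjusted p = 0.00190). Of 35 spinal cord and hindbrain subtype factors tested, 4 were lower in founders and 1 higher by edgeR (DESeq2 3 and 1), and 10 were lower and 6 higher at an unadjusted p under 0.05. Onecut1 had 0.114, 0.0968, 0.504 and 0.447 (-2.18), and Dbx1, a progenitor factor of ventral interneurons, had 0.213, 0.0181, 0.786 and 0.790 (-2.86). The Dbx1 call was not made by DESeq2. In each of these genes both founders lay on the same side of both F1 suspensions. The same held for all 77 called genes, so it adds no support to the calls.

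These calls rested on F0_8. Without it 4 genes were called, Dbx1, Fstl4, Pcdh15 and Thsd7b, all among the 77. F0_8 was also the suspension with the smallest caudal share (50% against 65.6 to 68.2%) and with Y-linked UMIs in most of its cells (88.1% against 3.64 to 44.8%). In caudal cells alone 33 genes were called, 30 of them among the 77, and there Unc5c changed sign. With the Y-linked share as a covariate 279 were called. Generation and the individual embryo cannot be told apart with 2 suspensions a group, and p-values measure the spread between these suspensions.

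**Figure D4:**
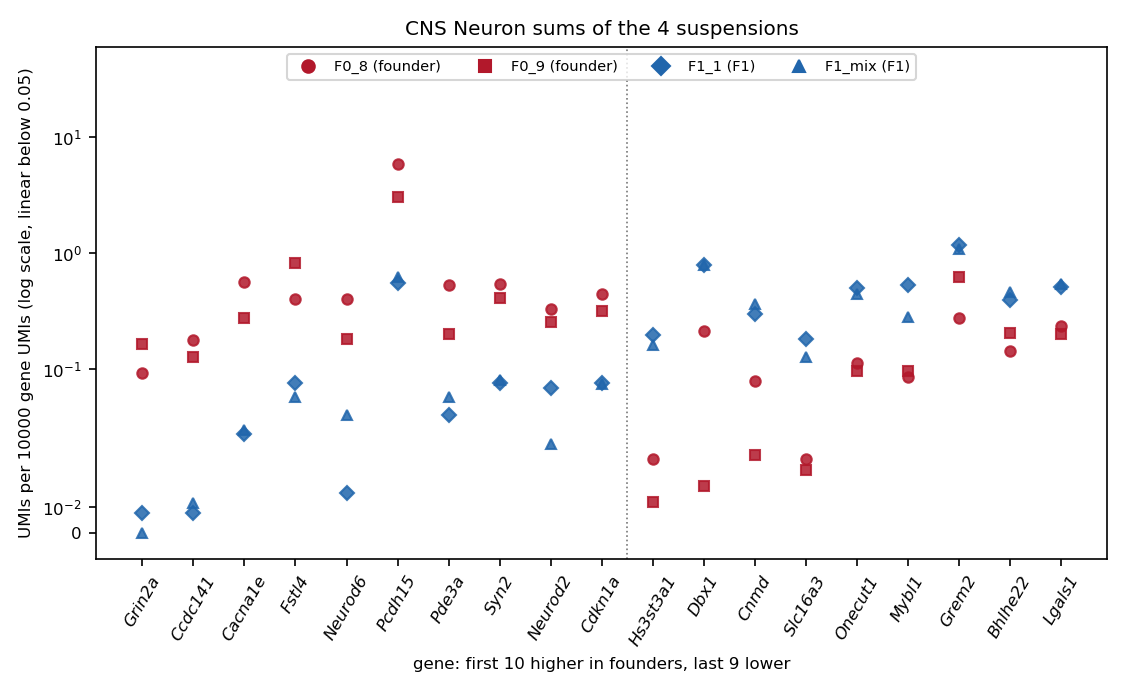
CNS Neuron levels (UMIs per 10000 gene UMIs, log axis that is linear below 0.05) of 19 genes named by rule for founders (red) against F1 (blue), with 1 symbol per suspension. The founder and F1 symbols did not overlap for any of the 19 genes, which the rule required, and F0_8 and F0_9 differed from each other in several, such as Dbx1 at 0.213 and 0.0181.

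The transgene was measured apart from the cell type call, since EGFP was removed before clustering. EGFP levels in CNS Neuron were 19.0, 16.4, 38.1 and 18.7, and 1 of 532 cells had no EGFP UMI. F1_1 stood above the other 3. The 90th percentile of single cells was 3.59, 9.82, 3.05 and 3.39 times the 10th, so that founder F0_9 had the widest spread among its neurons. Against the 9 other deep types outside red blood cells together, CNS Neuron was higher in 4 of 4 suspensions by a mean log2 ratio of 0.65 ± 0.10 (SD, n = 4), or 1.57-fold. The exact sign-flip permutation p was 1 in 8 (two-sided), the smallest that 4 suspensions allow, and 0.139 after adjustment over 10 comparisons. By type, the ratio was 1.25-fold over Neuroectoderm/Glia, 1.64-fold over Neuronal Progenitor and 1.92-fold over Epithelial Cell. Only against Hematoendothelial Progenitor/Endothelium was it not higher in all 4 (log2 0.14 ± 0.24, higher in 3 of 4, exact permutation p = 0.375). The same CAG promoter drives EGFP in all types, and how much of the ratio reflects promoter activity or insertion site was not tested.

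**Figure D5:**
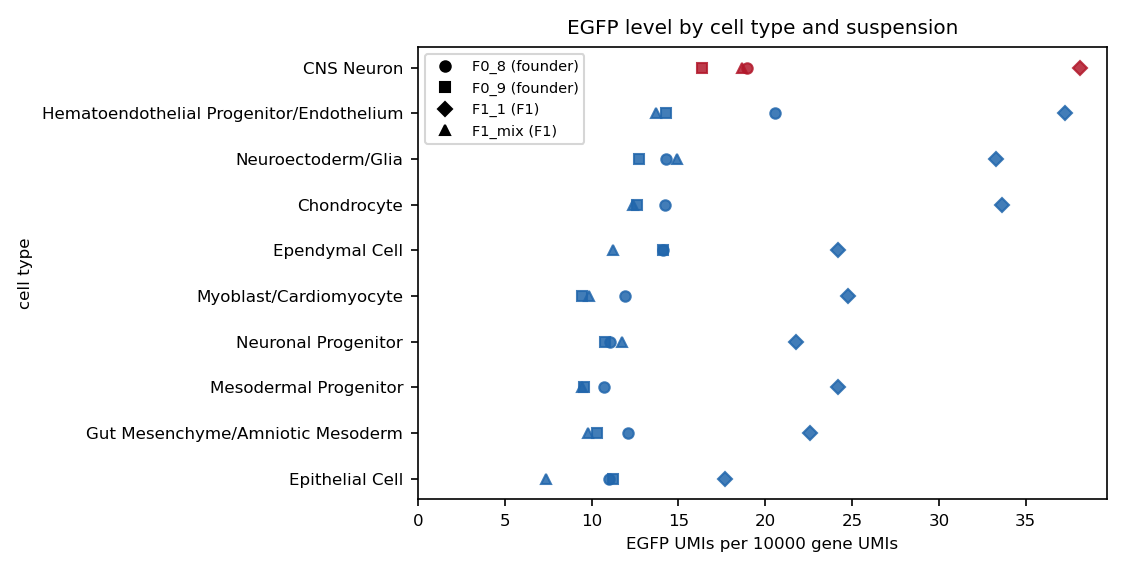
EGFP level (UMIs per 10000 gene UMIs, linear axis from 0) in CNS Neuron (red) and 9 other deep cell types (blue), with 1 symbol per suspension and types ordered by mean level. F1_1 was the highest suspension in CNS Neuron at 38.1.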

How the data were processed

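Single-cell RNA sequencing of 4 E11.5 cell suspensions was analysed. The authors deposited filtered matrices of UMI counts, made with Cell Ranger 7.2.0 on GRCm38 with an added EGFP, and a cell table with cell types from Seurat clustering after SoupX, DoubletFinder and RECODE; doublets were removed by the authors. CellPlex tag counts were deposited too and were used here only as depth. The matrices held 21937 gene features and 12 oligo features, and 18 columns of the cell table were not used. UMI counts were summed per suspension and class of CNS Neuron cells, since suspensions are the replicates, with founders F0_8 and F0_9 as founder replicates 1 and 2 and F1_1 and F1_mix as F1 replicates 1 and 2.

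Sums were tested with edgeR 4.0.16 (quasi-likelihood, TMM, filterByExpr, R 4.3.3) and Benjamini-Hochberg adjustment over all genes tested, at 0.05; DESeq2 1.42.0 was an alternative. Class comparisons had the suspension as a block because both classes came from the same embryo or mix; deviations of the classes of a suspension correlated by 0.0659 to 0.140. Genes named were the 25 with the largest ratio to the highest other deep type at a level of 1 or more in all suspensions, the 10 called genes with the largest change in each direction without overlap or with the same sign in every suspension, and list members. Deep types were the 12 of 16 whose median depth was not more than 3-fold below that of all cells. The members, classes and 333 list genes (1 symbol unmatched) were chosen with earlier results of these data known. Counting intervals were exact at 95%, a class at 0 was set to 3 counts, and thinning used seed 7. Python 3.11.15, numpy 2.4.6, pandas 2.3.3, scipy 1.17.1 and matplotlib 3.10.9 were used. Alternatives were a different tool, no filter, each suspension left out, cells of 5000 or more UMIs, stricter classes and, chosen after seeing the data, caudal cells only. Some items that the naming rule covers are not reported here.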

Additional observations from a re-analysis of the deposited data

Results flagged for a closer look

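Chance alone places about 1 in 20 groups of values past the limit used for a sample far from the others, and 41 values of CNS Neuron were examined. The caudal share of F0_8 (50%) lay far below the other 3 suspensions, the EGFP level of F1_1 (38.1) far above them, and the Eya2 level of F0_8 (3.84) above 3.16, 3.10 and 3.18. Eya2 is a phosphatase and coactivator of placode and sensory neurons.

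The difference between inhibitory and glutamatergic cells was not the same in founders and F1 for 16 genes by an edgeR interaction term. Tfap2b differed by 1.60 (log2, founder minus F1, adjusted p = 0.0430): inhibitory levels were 4.62, 4.15, 3.65 and 2.05 and glutamatergic levels 1.30, 0.917, 2.01 and 2.22. Sst, the somatostatin gene, had no UMI in the glutamatergic cells of the founders and 1.29 and 1.43 in those of F1. Pcdh15 had 11.46 and 7.52 in glutamatergic cells of the founders and 0.323 and 0.526 in those of F1.

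The difference between caudal and rostral cells was not the same in founders and F1 for 10 genes. Lhx9 differed by -1.99 (log2, adjusted p = 0.0389). Crabp1, a retinoic acid binding protein, had 0.615 and 0.0375 in rostral cells of the founders and 12.3 and 3.75 in those of F1, against 17.3 to 26.3 in caudal cells.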

How the results depend on the processing

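Without the replicate block, that is without pairing the classes of a suspension, 285 genes were called between inhibitory and glutamatergic cells (281 shared with the 376) and 314 between caudal and rostral cells (296 shared with the 399). DESeq2 called 179, 210 and 45 genes in the transmitter, region and founder comparisons, and leaving out the filter on low counts gave 716, 762 and 356. Leaving out a suspension gave 255 to 334, 256 to 407 and 4 to 184 genes; the lowest region count was without F0_9, and the founder comparison gave 4 without F0_8, 184 without F0_9 and 183 without F1_mix. Transmitter classes called at 5000 UMIs gave 247 genes and caudal cells only gave 250, and for founders against F1 caudal cells only gave 33 and the Y-linked share as a covariate 279. The cause of these changes was not tested. The founder minus F1 difference in CNS Neuron share was -1.32 percentage points without F0_9 and -0.325 without F1_1, and ranged from -1.32 to 2.26. The EGFP log2 ratio ranged from 0.60 to 0.68 over the suspensions left out. Of the values of named genes, 690 kept direction and call in the region comparison and 100 lost the call; in the transmitter comparison these were 690 and 111, and Nfib (0.075), Neurog2 (0.42) and Hmgb2 (0.084) reversed in caudal cells only; in the founder comparison 198 and 66, and Unc5c reversed (-0.34) in caudal cells only. Depth limits genes of few UMIs: with 102 glutamatergic and 103 rostral cells, a class at 0 UMIs does not show absence.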
